A study of Arabidopsis thaliana with 6 samples.

Results

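Catalases, ascorbate peroxidases, superoxide dismutases and respiratory burst oxidases (RBOH) make and remove reactive oxygen species in plant cells, and 10 Arabidopsis genes of these families are described here out of 33557 genes in the deposited table. They are CAT1, CAT2, CAT3, APX1, APX2, CSD1, CSD2, FSD1, RBOHD and RBOHF, chosen by locus identifier. The CPL4RNAi plants carried an RNA interference construct and are labelled a CPL4 knockdown, and the plants they were compared with were wild type (Col). Both were of the Columbia ecotype (spelled Colombia in the labels). Whole seedlings of both genotypes were 10 days old, were raised on quarter-strength MS medium with sucrose and received no treatment. The sources used here do not name the promoter of the construct or say whether the plants were of 1 line. CPL4 is a phosphatase acting on the polymerase that makes messenger RNA. By its title, the series asks about CPL4 in the switching of transcription between small nuclear and messenger RNA, and the 6 libraries, 3 biological replicates of each genotype, compare the genotypes without salt stress.

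The values are FPKM, that is fragments relative to transcript length and to all mapped fragments, with 1 value per genotype over its 3 libraries, so no spread between libraries can be shown for any gene. Each difference is therefore given beside the authors' own test: a p-value and a q-value (a p-value adjusted over all 18038 tested genes), called at q under 0.05. Nothing in the labels says that replicates came from separate sowings, so a p-value measures only the spread between these samples. Read totals per library were not analysed here. In whole seedlings, fewer cells of a type and less RNA per cell cannot be told apart. CPL4 itself stood at 8.84 FPKM in the labelled knockdown and 4.92 FPKM in Col seedlings in the authors' deposited table (q = 6.39e-04). The deposited level of the target thus went against its label, and the plants are called the labelled knockdown for that reason. Whether fragments from the construct count toward this level was not tested. Shoot and root transcripts of the labelled whole seedling were present, with a summed level of 5 shoot markers of 9801 FPKM in the labelled knockdown and 9131 FPKM in wild type and of 6 root markers of 611 and 609 FPKM in the authors' deposited table. Nearly all of the root sum came from 1 gene, PYK10, at 593 FPKM in the labelled knockdown and 589 FPKM in wild type. Of 5 tested shoot markers 1 was called higher, GLK2 (90.7 and 71.3 FPKM, q = 0.0454 in the authors' deposited table). Of 4 tested root markers 1 was called lower, the endodermal gene CASP1 (4.89 and 8.51 FPKM, q = 0.0120 in the authors' deposited table). The 3 flower markers stayed at or below 0.678 FPKM in the authors' deposited table. Of 6 seed markers, 3 were tested and 2 of these were called higher in the labelled knockdown, or 66.7%, and the summed level of the 6 was 15.5 FPKM there against 1.17 FPKM in Col seedlings in the authors' deposited table. Over all tested genes 12.7% were called higher and 9.78% lower. Whether seed transcripts have a part in the results below was not tested.

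Superoxide is made at the plasma membrane by RBOH oxidases and inside chloroplasts and mitochondria by electron transport. Superoxide dismutases turn it into hydrogen peroxide. Catalases then split hydrogen peroxide in peroxisomes, and ascorbate peroxidases reduce it with ascorbate in the cytosol, chloroplast and peroxisome. In leaves the largest known source for catalase is photorespiration. The copper and zinc dismutases are further known as targets of the microRNA miR398, which plants make when copper is scarce.

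The miR398 sequence and its best ungapped matches in CSD1 and CSD2 are shown because this microRNA is the known post-transcriptional control of these genes. The sequences were read from the RefSeq annotation of the assembly TAIR10.1, run 5′ to 3′ and are of the plus strand for the microRNA gene. Capitals mark the seed (bases 2 to 8) in the microRNA, and in the sites the bases that can form Watson-Crick pairs with it.
miR398b-3p: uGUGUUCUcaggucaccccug
CSD1 site: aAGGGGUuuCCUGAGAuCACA
CSD2 site: ugcGGGUGACCUGgGAAacau
The CSD1 site lies in the 5′ UTR at transcript bases 118 to 138 and has 17 pairs, a number that 4 of 27440 genes reached, CSD1 included. The CSD2 site lies in the coding sequence at transcript bases 562 to 582 and has 13 pairs without gaps, which 33.5% of genes reached, so this count alone does not single it out. With miR398b-3p, the best matches of the other 8 members had 12 to 14 pairs, and that of CCS, a further known target and the chaperone of the copper enzymes, had 15 pairs, which 0.995% of genes reached. With miR398a-3p, which shares the seed, CSD1 had 18 pairs, CCS 16 and FSD1 15, the last a number that 1.42% of genes reached.

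Of the 10 genes, 9 were tested by the authors, 5 were called higher in the labelled knockdown and 0 were called lower (Cuffdiff). That is 55.6% of the tested members called higher, where 12.7% of all tested genes were called higher and 9.78% lower. At q under 0.01 the counts were 4 and 0, where 8.24% of all tested genes were called higher and 5.51% lower. At an unadjusted p under 0.05 they were 5 and 0, where 18.0% of all tested genes were higher and 15.7% lower. The 5 were CAT2, RBOHD, CSD2, CSD1 and APX1. The median log2 ratio of the 9 was 0.38, beside −0.00 over all tested genes, and their log2 ratios ran from −0.15 for CAT3 to 1.43 for CAT2. The members were picked with earlier results of these data known, so these counts describe them and are no test of the families.

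**Figure D1:**
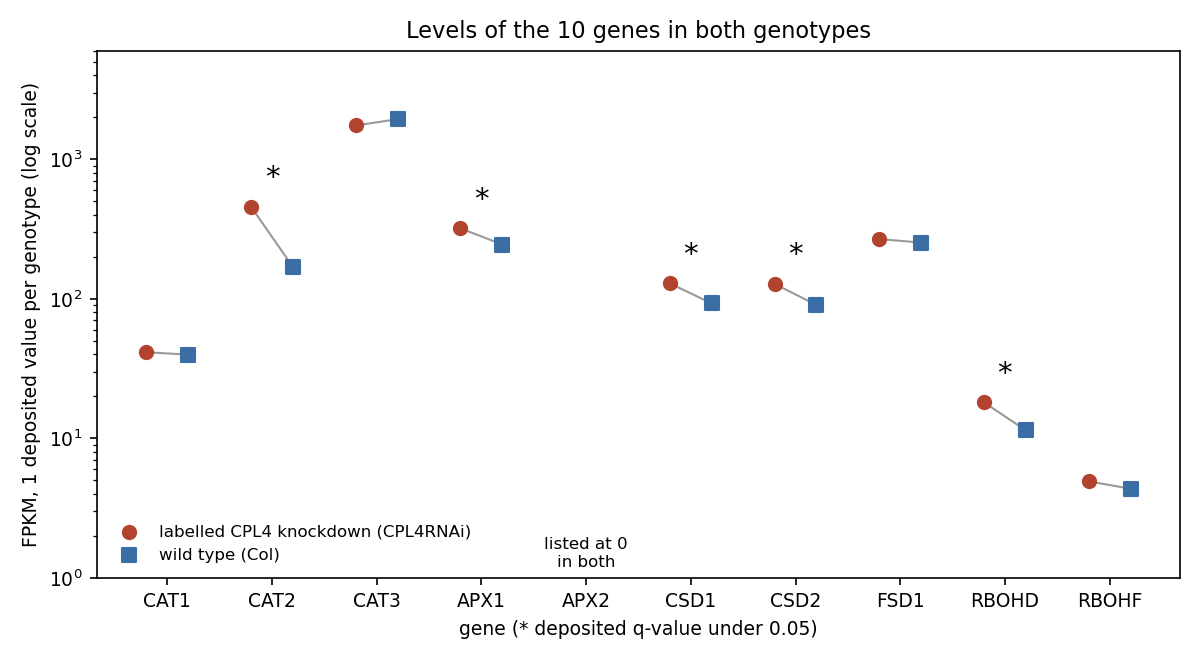
Levels of the 10 genes in FPKM (log axis), with 1 deposited value for the labelled CPL4 knockdown (circles, left of each pair) and 1 for wild type (squares, right); an asterisk marks a deposited q-value under 0.05, and there are no error bars because the tables hold no value per library. CAT2 has the widest gap of the 5 marked genes, at 456 against 169 FPKM, while CAT3 is the highest gene in both genotypes.

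The RBOH oxidases are the producers among the members. RBOHD (AT5G47910, chromosome 5, 19397443 to 19402061, TAIR10), which makes the oxidative burst of the immune response, stood at 18.1 FPKM in the labelled knockdown and 11.4 FPKM in Col seedlings in the authors' deposited table. RBOHD rose 1.58-fold (p = 5.00e-05, the lowest p-value in the authors' deposited table, and q = 6.39e-04). RBOHF (AT1G64060, chromosome 1, 23769774 to 23776931), known for abscisic acid signalling in guard cells and for lignin deposition in the root endodermis, stood at 4.92 FPKM in the labelled knockdown and 4.35 FPKM in Col seedlings in the authors' deposited table. Its difference of 13.0% was not called (q = 0.451). RBOHD and RBOHF together made up most of the RBOH transcript: RBOHD had 63.7% of the summed FPKM of 10 family members in the labelled knockdown and 57.7% in wild type, and RBOHF 17.3% and 22.0%. Among the other 8 listed with the family, AT4G25090 alone was tested, at 2.38 FPKM in the labelled knockdown and 1.84 FPKM in wild type (q = 0.183 in the authors' deposited table). The remaining 7 were at or below 1.05 FPKM in both genotypes, among them the root hair oxidase gene RBOHC. AT4G25090 is also the chromosomal neighbour of the member FSD1, 598 bp away on the same strand.

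Genes for known regulators of RBOHD or RBOHF, positive and negative, were examined as the nearest part of the pathway. The list holds kinases, receptors and calcium sensors, among them PBL13, a known negative regulator of RBOHD. Of its 18 genes, all tested, 3 were called higher and 0 lower, or 16.7% higher, beside 12.7% of all tested genes, with a median log2 ratio of 0.20. At q under 0.01 the counts were 1 and 0, beside 8.24% higher of all tested genes, and at an unadjusted p under 0.05 they were 5 and 0, beside 18.0%. The 3 called were BIK1 (12.1 FPKM in the labelled knockdown and 8.63 FPKM in wild type, q = 0.0133), whose kinase phosphorylates RBOHD in flagellin signalling, the calcium-dependent kinase gene CPK4 (9.73 and 6.95 FPKM, q = 0.0250) and the receptor-like kinase gene CRK2 (26.4 and 17.5 FPKM, q = 6.39e-04), all in the authors' deposited table.

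Both copper and zinc superoxide dismutases among the members were called higher, and the iron enzyme was not called. CSD1 (AT1G08830, cytosolic copper and zinc enzyme) stood at 129 FPKM in the labelled knockdown and 92.6 FPKM in wild type, and rose 1.39-fold (q = 0.00586) in the authors' deposited table. CSD2 (AT2G28190, chromosome 2, 12014498 to 12016569), the chloroplast copper and zinc enzyme, stood at 128 FPKM in the labelled knockdown and 90.3 FPKM in wild type, and rose 1.42-fold (q = 0.00117) in the authors' deposited table. These genes lie on different chromosomes and share no run longer than 17 bases, yet had nearly equal levels in each genotype. FSD1 (AT4G25100, chromosome 4, 12884300 to 12887011), the iron dismutase that plants raise when copper is scarce, stood at 268 FPKM in the labelled knockdown and 253 FPKM in Col seedlings in the authors' deposited table. It was not called (log2 ratio 0.08, q = 0.722), and the difference between its change and that of the CSD genes was not tested. FSD1 remained the most abundant dismutase transcript, with 41.0% of the summed FPKM of 8 family genes in the labelled knockdown and 45.4% in wild type.

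The deposited locus of CSD1 (chromosome 1, 2827061 to 2838469) is 11409 bp long and is shared with AT1G08840 on the opposite strand. Whether the libraries kept strand is not known here, so reads from bases shared by genes on opposite strands cannot be told apart. In the RefSeq annotation, 0 of the 871 stretches of 50 bases in CSD1 transcripts occurred in transcripts of another gene, on either strand. AT1G08840 stood at 1.27 FPKM in the labelled knockdown and 1.67 FPKM in wild type (q = 0.651) in the authors' deposited table, far below CSD1 in both genotypes.

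No other dismutase gene was called. CSD3, the peroxisomal enzyme, had a log2 ratio of −0.39 (q = 0.419), the chloroplast enzymes FSD2 and FSD3 had −0.20 (q = 0.461) and −0.38 (q = 0.0764), and mitochondrial MSD1 had 0.27 (q = 0.129) in the authors' deposited table. AT3G56350, annotated in the iron and manganese family, was not tested, at 0.229 FPKM in the labelled knockdown and 0.0371 FPKM in wild type.

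Copper genes were read beside the dismutases, because copper is known to set the balance of CSD and FSD1 transcripts through the transcription factor SPL7 and miR398. Of 25 tested genes of copper handling and copper proteins, 4 were called higher and 0 lower, or 16.0% higher, with a median log2 ratio of −0.02. The share called higher was near the 12.7% of all tested genes. At an unadjusted p under 0.05 the counts were 4 and 2, beside 18.0% and 15.7% of all tested genes. At q under 0.01 they were 2 and 0, beside 8.24% and 5.51%. CCS, the chaperone that loads copper into CSD enzymes and itself a known miR398 target, rose to 35.2 FPKM in the labelled knockdown, against 26.5 FPKM in wild type (q = 0.0225 in the authors' deposited table). The other 3 were the plantacyanin gene ARPN (3.18 FPKM in the labelled knockdown and 1.47 FPKM in wild type, q = 0.0438), the copper pump gene HMA5 (2.39 and 1.24 FPKM, q = 0.00117) and the laccase gene LAC7 (9.71 and 6.74 FPKM, q = 0.00982) in the authors' deposited table. SPL7 had 8.72 FPKM in the labelled knockdown and 8.39 FPKM in wild type (q = 0.824 in the authors' deposited table). MIR398C stood at 2.98 FPKM in the labelled knockdown and 4.85 FPKM in wild type (q = 0.323), and MIR398A and MIR398B were listed at 0 in both in the authors' deposited table. These rows count fragments over precursor genes and do not measure the mature microRNA.

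Of the 3 catalase genes, CAT2 alone was called. CAT2 (AT4G35090, chromosome 4, 16700342 to 16703325), the main leaf catalase and the one needed for photorespiratory hydrogen peroxide, stood at 456 FPKM in the labelled knockdown and 169 FPKM in Col seedlings in the authors' deposited table. It rose 2.70-fold (q = 6.39e-04), and its log2 ratio of 1.43 lay at percentile 97.1 of all tested genes with a ratio. CAT3 (AT1G20620, chromosome 1, 7143067 to 7146540), known for evening expression and for a rise in senescence, had 1748 FPKM in the labelled knockdown and 1940 FPKM in wild type (q = 0.535) in the authors' deposited table. CAT1 (AT1G20630, chromosome 1, 7146636 to 7149977), a catalase known from seeds and stress responses, had 41.4 FPKM in the labelled knockdown and 39.8 FPKM in wild type (q = 0.799) in the authors' deposited table. The summed FPKM of the 3 was 2246 in the labelled knockdown and 2149 in wild type, a ratio of 1.05, while the share of CAT2 was 20.3% in the labelled knockdown and 7.85% in wild type. CAT3 held 77.8% and 90.3%. NCA1, a chaperone needed for catalase activity, was not called (67.7 FPKM in the labelled knockdown and 77.3 FPKM in wild type, q = 0.310 in the authors' deposited table).

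CAT3 and CAT1 are neighbours on the plus strand, 95 bp apart. Despite their relatedness the catalase transcripts shared no run longer than 32 bases (CAT1 and CAT2), and none of the 50-base words of any member but CAT2 occurred in the transcripts of another gene. CAT2 shared 46 of 2810 such words, with AT4G35080 alone, a gene on the opposite strand that ends 20 bp from it in the deposited table and was not called (12.2 FPKM in the labelled knockdown and 11.2 FPKM in wild type, q = 0.605 in the authors' deposited table).

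CAT2 transcript is known to peak in the morning and CAT3 transcript in the evening. The morning clock gene CCA1 stood at 8.96 FPKM in the labelled knockdown and 3.41 FPKM in wild type, and LHY at 7.38 FPKM and 0.461 FPKM (q = 6.39e-04 each) in the authors' deposited table. The evening gene TOC1 fell to 36.8 FPKM in the labelled knockdown, against 57.9 FPKM in wild type (q = 6.39e-04 in the authors' deposited table). Of 9 clock genes, 3 were called higher and 4 lower, or 33.3% and 44.4%, beside 12.7% and 9.78% of all tested genes. PRR9, an early daytime gene, was also called higher, at 6.76 FPKM in the labelled knockdown and 1.89 FPKM in Col seedlings in the authors' deposited table. The labels give no hour of harvest, and the part of clock phase in the CAT2 value was not tested.

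Of 7 tested ascorbate peroxidase genes, 4 were called higher and 1 lower, or 57.1% and 14.3%, beside 12.7% and 9.78% of all tested genes. APX1 (AT1G07890, chromosome 1, 2437330 to 2439665), the main cytosolic enzyme, had 320 FPKM in the labelled knockdown and 245 FPKM in Col seedlings in the authors' deposited table, and rose by 30.5% (q = 0.0273). It was the call closest to the threshold among the members, and it did not pass at q under 0.01. APX2 (AT3G09640, chromosome 3, 2956156 to 2958327), a cytosolic enzyme known for induction by heat and strong light, was listed at 0 FPKM in both genotypes and was not tested. Genes of heat shock factors, some of which are known to activate APX2, were read together with that of the chaperone HSP101. Of 7 tested genes, 1 was called higher and 0 lower. That is 14.3% higher, near the 12.7% of all tested genes. The called gene was HSFA4A (16.9 FPKM in the labelled knockdown and 9.48 FPKM in wild type, q = 6.39e-04 in the authors' deposited table). HSFA2 was not tested, at 0.118 FPKM in the labelled knockdown and 0.122 FPKM in wild type.

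Among the 6 other ascorbate peroxidase genes, 3 were called higher and 1 lower, where 12.7% of all tested genes were called higher and 9.78% lower. The stromal enzyme gene SAPX rose to 29.6 FPKM in the labelled knockdown, against 20.7 FPKM in wild type (q = 0.00117), whereas the thylakoid enzyme gene TAPX fell to 44.1 FPKM, against 67.7 FPKM in wild type (q = 6.39e-04), in the authors' deposited table. The peroxisomal membrane enzyme gene APX3 stood at 117 FPKM in the labelled knockdown and 90.5 FPKM in wild type (q = 0.0250), and APX5 at 3.83 FPKM and 1.71 FPKM (q = 0.00898) in the authors' deposited table. APX4 (TL29) had a log2 ratio of 0.20 (q = 0.520) and APX6 of 0.02 (q = 0.946) in the authors' deposited table. The summed FPKM of the 8 genes was 695 in the labelled knockdown and 584 in wild type, of which APX1 made up 46.0% and 42.0%.

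**Figure D2:**
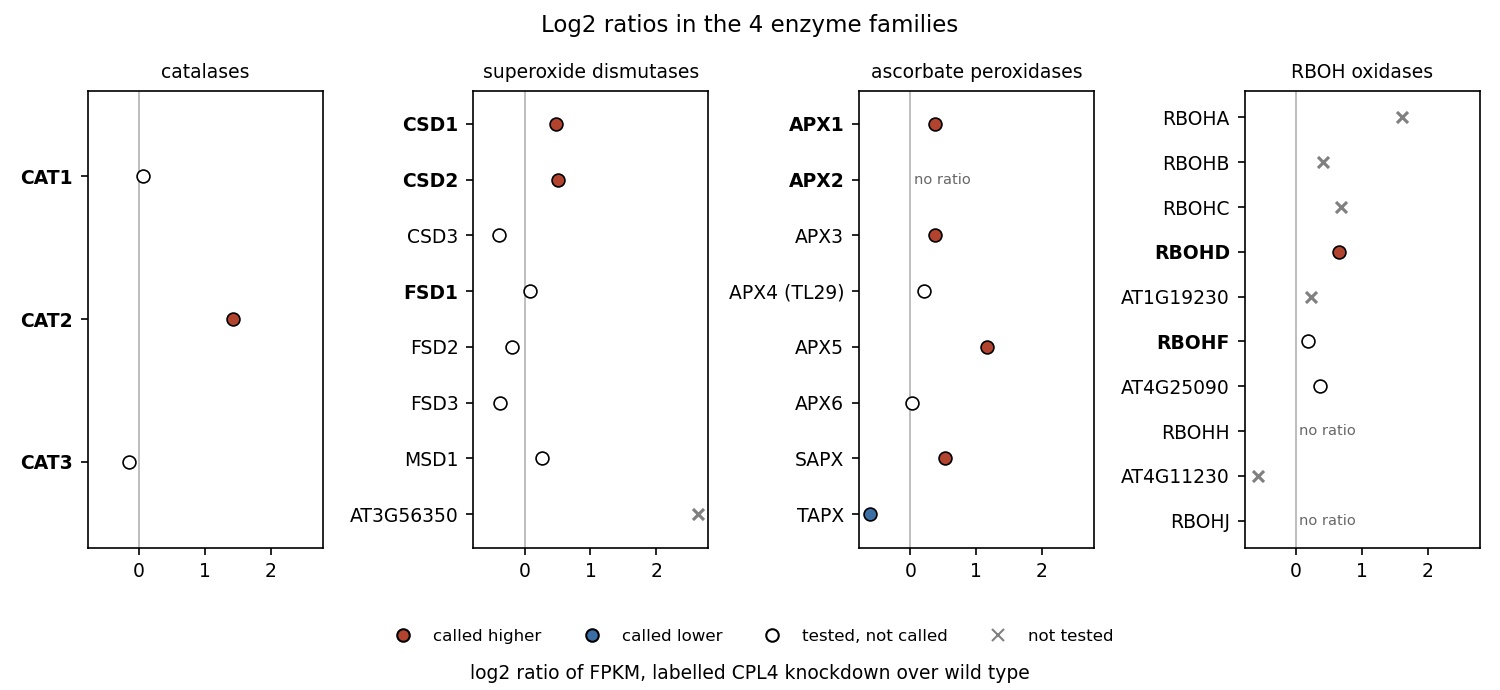
Log2 ratio of FPKM, labelled CPL4 knockdown over wild type, for each gene of the 4 families (members in bold); filled points were called by the authors' test, open points were tested and not called, and crosses were not tested. CAT2 is the one filled point among catalases, the CSD1 and CSD2 points lie side by side at 0.48 and 0.51, and TAPX at −0.62 is the one filled point left of 0.

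Transcription start groups, sets of transcripts that share a start in the annotation, split 6 of the members. The 10 genes had 22 of 38090 start groups. Of these, 15 were tested, 4 were called higher and 0 lower (Cuffdiff), where 10.2% of all tested start groups were called higher and 7.34% lower. CAT1, CSD2, RBOHD and RBOHF had 1 start group each, with the values of the gene. CAT2 and CSD1 had a second start group each, at or below 0.189 FPKM in both genotypes, so the called start group held nearly all of each gene's FPKM.

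In APX1 the gene was called but none of its 5 start groups was. Its leading start group stood at 230 FPKM in the labelled knockdown and 152 FPKM in wild type (p = 0.0424, q = 0.156), and the next at 87.1 FPKM and 88.3 FPKM (q = 0.981) in the authors' deposited table. The leading group thus made up 71.9% of the summed FPKM in the labelled knockdown and 62.1% in wild type, a difference in share that was not tested. The other 3 were at or below 3.53 FPKM.

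In FSD1 the leading start groups had 185 FPKM in the labelled knockdown and 165 FPKM in wild type (q = 0.888) and 79.4 FPKM and 70.4 FPKM (q = 0.936) in the authors' deposited table. A minor start group of FSD1 had 3.50 FPKM in the labelled knockdown and 16.6 FPKM in wild type (log2 ratio −2.24), a large ratio with q = 0.683 in the authors' deposited table. In CAT3 the leading start group held 97.1% of the summed FPKM in the labelled knockdown and 98.4% in wild type. The minor CAT3 start group had 51.4 FPKM in the labelled knockdown and 31.9 FPKM in wild type (q = 0.816 in the authors' deposited table), a level near that of the whole CAT1 gene.

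**Figure D3:**
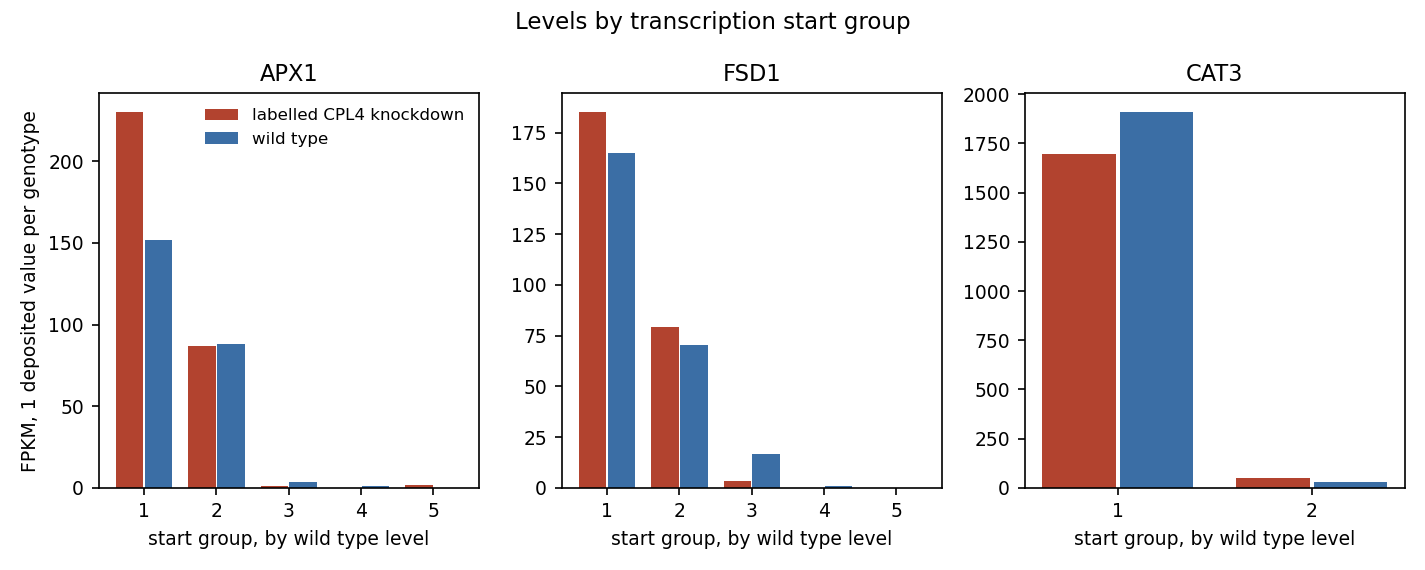
FPKM of each transcription start group (bars, linear axis from 0) of APX1, FSD1 and CAT3 in the labelled CPL4 knockdown (left bar) and wild type (right bar), ordered by wild type level, with 1 deposited value per bar and no error. The leading APX1 group is at 230 against 152 FPKM while its second group is at 87.1 against 88.3 FPKM.

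Enzymes that recycle ascorbate and glutathione feed the ascorbate peroxidases, and their genes were listed together with genes of ascorbate and glutathione synthesis. Of 17 tested genes, 4 were called higher and 2 lower, or 23.5% and 11.8%, beside 12.7% and 9.78% of all tested genes, with a median log2 ratio of −0.06. VTC2, called higher, and GSH2, called lower, belong to synthesis. At an unadjusted p under 0.05 the counts of the whole list were 5 and 4, beside 18.0% and 15.7% of all tested genes. The glutathione reductase gene GR1 stood at 31.4 FPKM in the labelled knockdown and 15.7 FPKM in wild type, and MDAR1, for a monodehydroascorbate reductase, at 154 FPKM and 93.5 FPKM (q = 6.39e-04 each) in the authors' deposited table. MDAR3, of the same enzyme class, fell to 0.855 FPKM in the labelled knockdown, against 2.03 FPKM in wild type (q = 0.00586 in the authors' deposited table). Among glutathione peroxidases and peroxiredoxins, 2 of 16 tested genes were called higher and 0 lower, a share of 12.5%, near the 12.7% of all tested genes. The 2 were TPX1 (62.1 FPKM in the labelled knockdown and 45.3 FPKM in wild type, q = 0.00927) and the mitochondrial peroxiredoxin gene PRXIIF (37.5 and 25.3 FPKM, q = 6.39e-04) in the authors' deposited table. At an unadjusted p under 0.05 the counts for this list were 4 and 0, beside 18.0% and 15.7% of all tested genes.

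Class III peroxidases, secreted enzymes that use hydrogen peroxide in the cell wall, went in both directions. Of 34 tested genes of 40 listed, 5 were called higher and 5 lower, or 14.7% each, beside 12.7% higher and 9.78% lower of all tested genes, and the median log2 ratio was −0.12. At q under 0.01 the counts were 4 and 4, beside 8.24% higher and 5.51% lower of all tested genes. At an unadjusted p under 0.05 they were 6 higher and 12 lower, beside 18.0% and 15.7%, so the even balance did not hold there. AT2G41480 stood at 3.85 FPKM in the labelled knockdown and 1.25 FPKM in wild type, whereas AT5G64120 stood at 9.64 FPKM and 22.9 FPKM (q = 6.39e-04 each) in the authors' deposited table. RefSeq describes both as wall-bound peroxidases that act in lignification. PRXCA fell to 6.69 FPKM in the labelled knockdown, against 25.8 FPKM in wild type (q = 6.39e-04 in the authors' deposited table). Its close relative PRXCB, named after its values were seen, stood at 75.6 FPKM in the labelled knockdown and 36.4 FPKM in wild type (q = 6.39e-04 in the authors' deposited table). PRXCA and PRXCB shared 99 words of 50 bases, 6.53% of the PRXCA words and 6.72% of the PRXCB words, so the split of reads between them is uncertain in part.

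**Figure D4:**
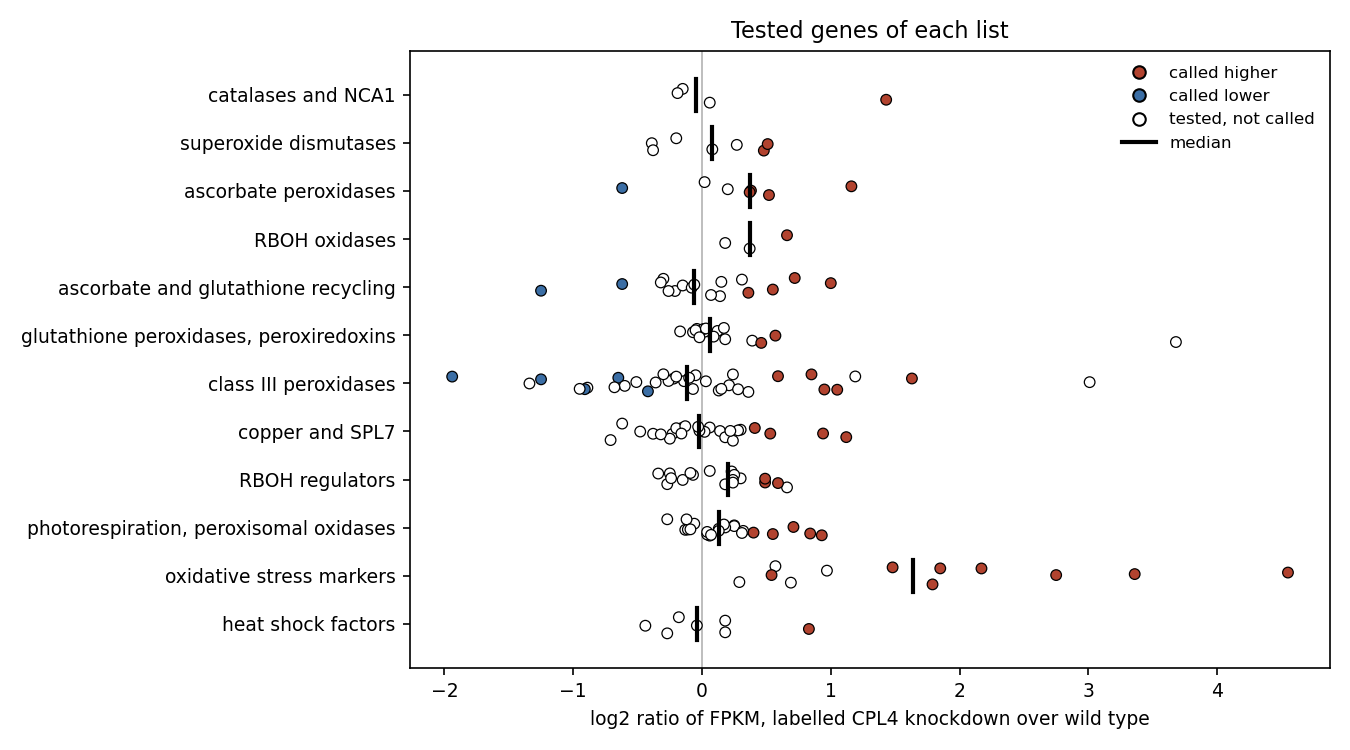
Log2 ratio of FPKM, labelled CPL4 knockdown over wild type, for every tested gene of 12 lists (points, shifted up or down at random within a row), with the median of each list as a bar; colours mark the authors' calls. Medians of most lists lie near 0, and that of the oxidative stress markers lies at 1.64. The row of ascorbate and glutathione recycling also holds genes of their synthesis.

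Promoters were searched for short motifs of known regulators in windows from 250 bases before to 50 bases after the RefSeq start, on both strands, among 27443 protein-coding genes. The evening element core AATATCT matched CAT3 at 2 positions and no other member, and 11.5% of all promoters held it. The copper response core GTAC, the core of SPL7 binding, matched CAT2, CAT3, CSD1, FSD1, APX2, RBOHD and RBOHF, and 39.0% of all promoters held it. The heat shock element core GAANNTTC matched APX1 and APX2, against 11.6% of all promoters. The G-box CACGTG matched APX2 alone among the members, against 7.68% of all promoters. The W-box core TTGAC, bound by WRKY factors, matched CAT1, CAT2, APX1, CSD1, CSD2 and RBOHD, and 50.5% of all promoters held it. These matches describe letters in the window and not binding.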

How the data were processed

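Ribosomal RNA was removed, cDNA was made by a PCR method, and paired ends of 100 bp were read, per the labels' protocols. TAIR10, Cuffdiff 2.2.1.3 and TopHat2 2.0.14 are named in the submitters' processing notes, and so are Trim Galore 0.4.0 and CASAVA 1.8.2. The authors deposited FPKM per gene and per start group, 1 value per genotype over 3 biological replicates, in Cuffdiff's layout per the file headers. Each row carries a deposited p-value and q-value, used as they stand, because no test can be built on 1 value. Recomputing the Benjamini-Hochberg adjustment gave the deposited q-value to within 5.25e-07. For 1411 genes the p-value is 5.00e-05, the lowest there.

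Log2 ratios were recomputed from FPKM without a pseudocount. Deposited starts count from 0 and were raised by 1. Of 32797 nuclear genes, 8985 had start and end identical to RefSeq's TAIR10.1 annotation, spread over all 5 chromosomes, and that annotation served for names, strands and sequences. The code for calls and adjustment was tested on simulated data, which does not test the authors' p-values. The deposited snRNA coverage holds none of these genes and was not used. The members and all 17 gene lists were chosen with earlier results of these data known. All 10 members are named. From each list but the seed markers, the called genes with the 3 largest absolute log2 ratios and at least 1 FPKM in 1 or both genotypes are named. SPL7, MIR398 genes, CCS, CCA1, LHY and TOC1 are named whatever their call. So are genes of the 4 families, except RBOH genes that are given as a group. Further genes, among them PBL13, HSP101, HSFA2, GOX1, GOX2, HPR1, GLU1, VTC2 and GSH2, are named outside these rules. Alternatives were q under 0.01, unadjusted p, other pseudocounts, median centring and start groups. Python 3.11.15, numpy 2.4.6, pandas 2.3.3 and matplotlib 3.10.9 were used.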

Additional observations from a re-analysis of the deposited data

How the results depend on the processing

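The 5 members called higher numbered 4 at q under 0.01 and 4 by start groups, in both cases without APX1, and 5 at an unadjusted p under 0.05; 0 were called lower under any of these. All 36 member log2 ratios recomputed with a pseudocount of 1 or 0.1, after subtracting the median of all tested genes (−0.00), or from summed start groups kept their direction. An equal pseudocount on both levels cannot reverse a ratio, and the other 2 settings barely shift one. This count is therefore no check of the directions. Over the pathway lists without the members, 38 genes were called higher and 12 lower of 173 tested, or 22.0% and 6.94%, beside 12.7% and 9.78% of all tested genes. At an unadjusted p under 0.05 the counts were 47 and 26, beside 18.0% and 15.7% of all tested genes. Of 78 counts for single lists, 12 moved by more than 1.5 times or away from 0. No paired analysis was possible because the tables hold 1 value per genotype, and for the same reason no library could be left out. Depth per library is unknown, so for genes listed at 0 no limit can be given.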

Other observations

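In the labelled knockdown 8 of 12 tested oxidative stress markers were called higher, or 66.7%, and 0 lower, where 12.7% of all tested genes were called higher. At an unadjusted p under 0.05 the counts were also 8 and 0, beside 18.0% and 15.7% of all tested genes. This list too was chosen with earlier results of these data known, so its counts are no test. AT2G21640, annotated as a marker of oxidative stress, stood at 28.8 FPKM in the labelled knockdown and 1.23 FPKM in wild type, BCS1, for an outer mitochondrial membrane protein, at 15.3 FPKM and 1.49 FPKM, and the zinc finger gene ZAT12 (RHL41) at 8.98 FPKM and 1.33 FPKM (q = 6.39e-04 each) in the authors' deposited table. The log2 ratio of AT2G21640 was 4.55, beside 1.43 for CAT2.

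Photorespiration and peroxisomal oxidases make hydrogen peroxide that catalase removes. Of 23 tested genes, 5 were called higher and 0 lower, or 21.7%, beside 12.7% higher and 9.78% lower of all tested genes, with a median log2 ratio of 0.13. At q under 0.01 the counts were 3 and 0, beside 8.24% and 5.51%, and at an unadjusted p under 0.05 they were 7 and 1, beside 18.0% and 15.7%. GLDP2, for a glycine decarboxylase subunit, stood at 210 FPKM in the labelled knockdown and 118 FPKM in wild type (q = 6.39e-04), the acyl-CoA oxidase gene ACX2 at 48.0 FPKM and 29.4 FPKM (q = 6.39e-04) and the glycolate oxidase gene GOX3 at 2.58 FPKM and 1.35 FPKM (q = 0.0153) in the authors' deposited table. Also called higher there were the abundant genes HPR1 (468 FPKM in the labelled knockdown and 319 FPKM in wild type, q = 0.00117) and GLU1 (296 and 223 FPKM, q = 0.0289). The glycolate oxidase genes far more abundant than GOX3 were not called there. GOX1 had 412 FPKM in the labelled knockdown and 345 FPKM in wild type (q = 0.180), and GOX2 273 and 230 FPKM (q = 0.178). The gene beside FSD1 on the same strand, AtMC2, was called higher at 1.74 FPKM in the labelled knockdown and 0.613 FPKM in wild type (q = 0.00211 in the authors' deposited table), and was the only one of the genes next to a member to be called; it was picked after its values were seen.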
